A study of Mus musculus with 53 samples.

Results

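Type I interferon-stimulated genes were followed in bone marrow-derived macrophages (BMDMs), that is, marrow progenitors grown into macrophages in culture, during alternative polarization with interleukin-4 (IL-4). They are 35 named genes (Ifit1, Ifit2, Ifit3, Isg15, Isg20, Mx1, Mx2, Oasl1, Oasl2, Oas1a, Oas2, Oas3, Rsad2, Cmpk2, Usp18, Rtp4, Herc6, Ifih1, Ddx58, Dhx58, Ddx60, Zbp1, Xaf1, Parp9, Parp14, Dtx3l, Ifi35, Ifi44, Sp100, Lgals3bp, Tor3a, Eif2ak2, Samd9l, Bst2 and Epsti1), taken by symbol from the 23847 loci of the RNA-seq tables. The rule that picks them reads the symbol alone, and all 35 were among the 11146 loci tested. The cells came from wild-type (WT) and Stat6-/- mice of 8 to 12 weeks, both on a C57BL/6 background, and the knockout covered the whole body, so that every cell type of those mice carried it. Progenitors of both genotypes were differentiated for 6 days, then treated with 20 ng/ml IL-4 for 1, 3, 6 or 24 h or kept without it for the same time, and a further control was taken at 0 h. This gave 53 samples in 18 groups, 4 per WT group (3 at 24 h with IL-4, where replicate 1 was not analysed here) and 2 per Stat6-/- group. Values are FPKM, a fragment count corrected for transcript length and for the size of the library, so that levels of different genes can be set side by side.

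Stat6 itself was at 58.7 to 90.6 FPKM in the 35 WT samples and at 14.3 to 24.0 FPKM in the 18 Stat6-/- samples, with no overlap. The macrophage genes Csf1r (610 to 1081 FPKM) and Cd68 (780 to 1678 FPKM) were high in every sample. Of the same marker list, Emr1 was at 468 to 1840 FPKM and Itgam at 156 to 599.9 FPKM. Fcgr1 was at 15.99 to 553 FPKM and Mertk at 4.598 to 28.4 FPKM, so not every macrophage gene was high throughout. Fcgr1, Mertk and Emr1 fell with IL-4 at 24 h in WT, as given below. FPKM sums lay between 385889 and 464915, 10017 to 10380 loci reached 1 FPKM, and the depth of the libraries relative to each other, read from the steps between low values, ran from 0.707 to 1.552. The 2 Stat6-/- replicates stood apart from each other in these genes: replicate 2 was above replicate 1 for all 35 of them in all 9 Stat6-/- groups, which was so for 15.6% of all loci tested. Counts that rest on Stat6-/- samples are therefore given with both replicates and with each left out or counted by itself, and comparisons within a genotype or of responses also with a replicate block, a term of the fit by which samples carrying the same number are compared.

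Type I interferons signal through the receptor Ifnar1/Ifnar2 and the kinases Jak1 and Tyk2 to a complex with Stat2 and Irf9, which binds the interferon-stimulated response element (ISRE) in the promoters of the target genes. The targets sense foreign RNA and DNA, degrade RNA, block translation, trap virus particles at the membrane and tag proteins with the ubiquitin-like modifier Isg15. Macrophages keep a low tonic interferon signal without infection. IL-4 uses another member of the same family, Stat6, whose dimers prefer sites of the form TTC and GAA set 4 bases apart.

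The promoters of 8 genes that the results below turn on are printed first, so that the letters of the element through which interferon acts can be looked for in them. They are the 200 bases before the transcription start, 5′ to 3′ on the strand of the gene, from RefSeq on GRCm38.p6. Capitals mark each ISRE core, counted here as 2 GAAA repeats 2 bases apart on either strand, so that on the other strand it reads as TTTC repeats. The windows are Ifit1 chr19:34640689-34640888, plus strand, Ifit2 chr19:34550494-34550693, plus strand, Ifit3 chr19:34583329-34583528, plus strand, and Rsad2 chr12:26456453-26456652, minus strand. Those of the other 4 are Isg15 chr4:156200819-156201018, minus strand, Oasl2 chr5:114896734-114896933, plus strand, Bst2 chr8:71537473-71537672, minus strand, and Lgals3bp chr11:118401960-118402159, minus strand.
Ifit3: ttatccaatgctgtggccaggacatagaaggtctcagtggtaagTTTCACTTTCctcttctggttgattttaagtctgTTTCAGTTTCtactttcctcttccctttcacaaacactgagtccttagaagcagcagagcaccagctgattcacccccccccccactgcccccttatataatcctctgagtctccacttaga
Ifit1: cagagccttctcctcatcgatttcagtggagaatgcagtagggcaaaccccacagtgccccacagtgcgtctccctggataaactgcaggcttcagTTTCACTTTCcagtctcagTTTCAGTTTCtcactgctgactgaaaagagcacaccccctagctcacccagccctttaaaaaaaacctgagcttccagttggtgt
Ifit2: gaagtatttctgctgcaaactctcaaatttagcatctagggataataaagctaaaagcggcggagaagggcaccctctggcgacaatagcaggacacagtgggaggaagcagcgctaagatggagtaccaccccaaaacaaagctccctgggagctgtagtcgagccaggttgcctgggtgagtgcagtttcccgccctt
Rsad2: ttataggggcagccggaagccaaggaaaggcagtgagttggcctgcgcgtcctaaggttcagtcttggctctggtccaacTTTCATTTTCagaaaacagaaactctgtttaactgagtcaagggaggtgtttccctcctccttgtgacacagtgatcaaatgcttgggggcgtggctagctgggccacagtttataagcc
Isg15: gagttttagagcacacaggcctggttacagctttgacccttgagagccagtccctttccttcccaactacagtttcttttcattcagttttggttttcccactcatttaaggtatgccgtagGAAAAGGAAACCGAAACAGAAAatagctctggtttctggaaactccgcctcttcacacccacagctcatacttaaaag
Oasl2: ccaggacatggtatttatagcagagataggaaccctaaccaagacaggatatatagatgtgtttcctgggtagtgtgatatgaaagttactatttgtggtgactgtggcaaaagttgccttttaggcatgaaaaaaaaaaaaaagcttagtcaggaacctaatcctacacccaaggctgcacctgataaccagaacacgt
Bst2: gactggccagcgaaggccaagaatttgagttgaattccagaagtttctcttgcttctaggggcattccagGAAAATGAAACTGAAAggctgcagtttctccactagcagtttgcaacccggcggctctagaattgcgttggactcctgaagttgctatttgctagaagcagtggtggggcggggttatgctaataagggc
Lgals3bp: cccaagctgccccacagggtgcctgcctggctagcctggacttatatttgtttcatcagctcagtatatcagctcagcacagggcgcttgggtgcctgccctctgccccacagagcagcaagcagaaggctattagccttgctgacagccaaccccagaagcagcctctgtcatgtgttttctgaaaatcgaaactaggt

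Ifit3 and Ifit1 each held 2 cores on the TTTC side, Rsad2 held 1, and Isg15 and Bst2 held runs of 3 and 2 overlapping cores. The windows of Ifit2, Oasl2 and Lgals3bp held none in these letters.

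The genes covered a wide range of levels in resting WT macrophages. At 0 h the highest were Bst2 (tetherin, which holds budding virus on the cell) at 698 ± 282 FPKM and Lgals3bp (a secreted glycoprotein) at 627 ± 74.4 FPKM (mean ± SD, n = 4), and these neighbours overlapped. Ifit3 (195 ± 37.5 FPKM), Isg15 (169 ± 67.1 FPKM), Rtp4 (169 ± 23.1 FPKM) and Oasl2 (157 ± 20.8 FPKM) followed, again within each other's spread. The lowest were Mx2 at 9.62 ± 1.13 FPKM and Ddx60 at 9.18 ± 1.88 FPKM. No gene was at 0 in any of the 53 samples. Levels of near-identical copies are uncertain: 51.2% of the 50-base words of Ifit3 also occur in Ifit3b and 57.6% of those of Oas1a in Oas1g, whereas in the other 33 genes the share was at most 12.5%. Dtx3l and Parp9 overlap on opposite strands of chromosome 16, and the sources used here name no strand-specific counting. Mx2 is annotated as a polymorphic pseudogene in GENCODE.

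**Figure D1:**
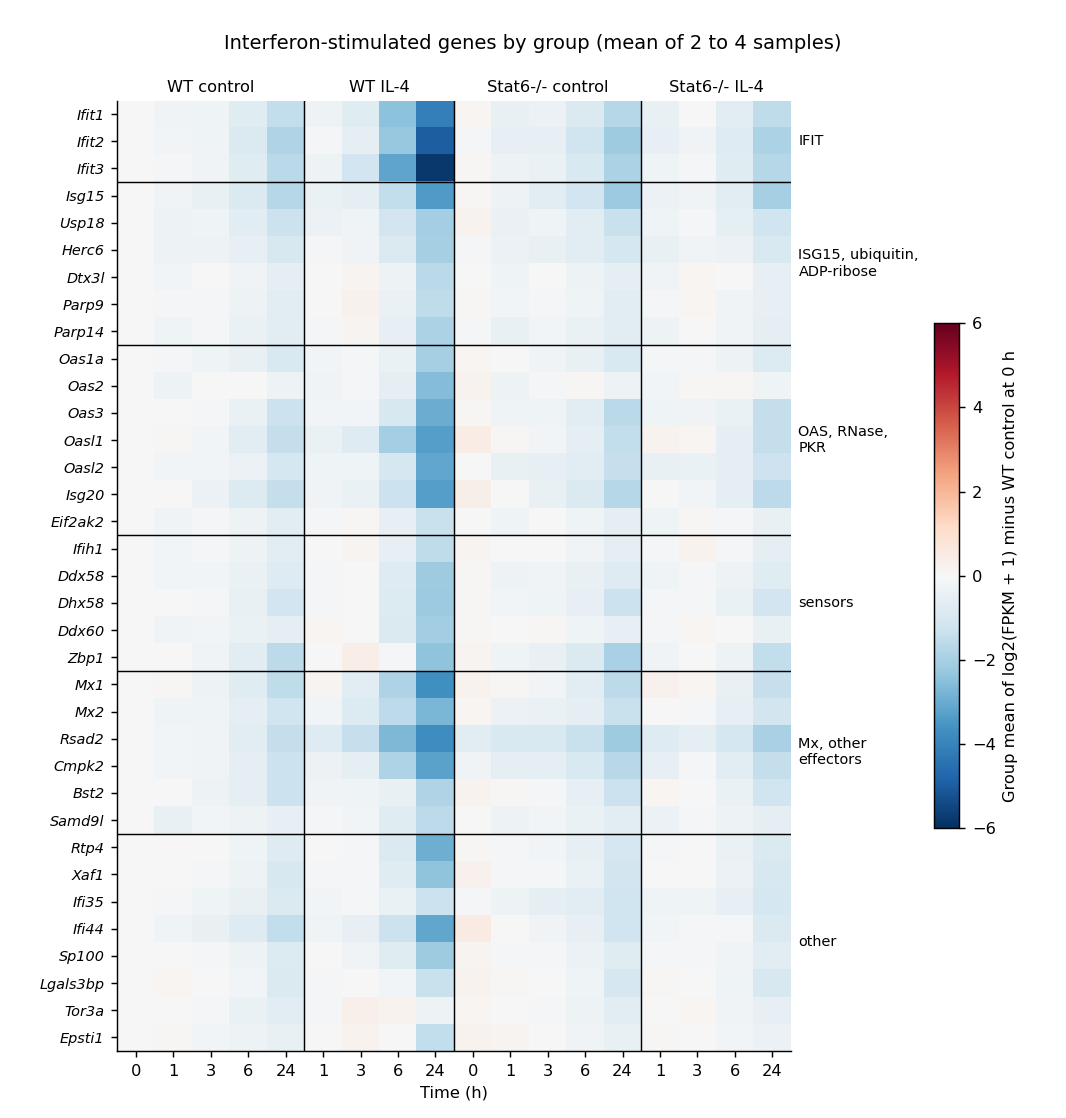
Mean log2(FPKM + 1) of the 35 genes (rows) in each of the 18 groups (columns), shown as the difference from the WT control at 0 h, with blue for lower and red for higher. The WT column with IL-4 at 24 h is the lowest for most rows, and the controls of both genotypes also become lower at 24 h.

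IL-4 in WT cells was followed first. After 24 h, 23 of the 35 genes had fallen at least 2-fold below the time-matched control (limma, Benjamini-Hochberg adjusted p below 0.05 over all loci), and none had risen, against 8.5% of all loci called in either direction. The median log2 change of the 35 genes was -1.38, beside -0.07 over all loci tested. The decrease built up late: no gene was called at 1 h (1.49% of loci) or at 3 h (3.88%), and 4 were called at 6 h (5.54%). At 1 h and at 3 h no gene had an unadjusted p below 0.05 in limma (19.8% and 37% of loci did), and the medians were -0.02 and -0.03; at 6 h the median was -0.45. With the replicate block 1 gene was called at 3 h (3.99% of loci), 8 at 6 h (5.73%) and 23 at 24 h (8.87%), of which 22 were the same as without it. Fitted on the WT samples alone, 8 genes were called at 6 h (5.71% of loci) and 25 at 24 h (8.76%), and with a Tukey adjustment over the 16 treated and time-matched groups 0 (5.1%) and 5 (7.42%). Leaving out IL-4 replicate 4 at 6 h brought the 6 h count from 4 to 2 (5.45% of loci). The labels give only replicate numbers, and the study describes individual animals. In bulk RNA, less RNA per cell and fewer cells that make it cannot be told apart.

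The IFIT genes, whose products bind foreign RNA and block its translation, had the 3 largest decreases at 24 h. Ifit3, which stabilizes Ifit1 in their complex, was at 68.1, 56.7, 62.4 and 58.9 FPKM in control replicates 1 to 4 at 24 h and at 3.80, 1.91 and 2.06 FPKM in IL-4 replicates 2 to 4. All IL-4 samples were far below all controls, and the mean was 4.21% of control, a log2 change of -4.16 ± 0.71 (SE, adjusted p = 6.23e-06). The standard error was 0.15 with the block, at a log2 change of -4.06. Ifit2 was at 32.7, 31.3, 27.5 and 26.5 FPKM in the 24 h controls and at 3.11, 2.08 and 2.32 FPKM with IL-4. Its groups were apart as well, and it fell by 3.13 ± 0.85 on the log2 scale (adjusted p = 0.00206). Ifit1, which recognizes RNA without a proper cap, was at 17.6, 15.7, 17.4 and 15.97 FPKM in the controls and at 2.69, 1.53 and 1.47 FPKM with IL-4, with a log2 change of -2.63 ± 0.61 (adjusted p = 0.000451).

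Ifit3 and Ifit1 were already lower at 6 h. Ifit3 was at 141, 157, 105 and 77.4 FPKM in the 6 h controls and at 27.3, 25.2, 21.7 and 11.2 FPKM with IL-4, so that the highest IL-4 sample was below the lowest control. Its log2 change was -2.46 ± 0.66 (adjusted p = 0.00248), and Ifit1 fell by 1.73 ± 0.57 (adjusted p = 0.0134; not called without IL-4 replicate 4), from 34.1, 34.9, 28.4 and 20.4 FPKM to 11.01, 10.9, 8.43 and 3.91 FPKM. At 3 h Ifit3 was at 177, 195, 147 and 141 FPKM in the controls and at 101, 99.3, 67.2 and 82.4 FPKM with IL-4, which did not overlap but gave a log2 change of -0.91 (adjusted p = 0.346) that passed only with the block (adjusted p = 1.63e-06).

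Among the Mx GTPases and other antiviral effectors 5 of 6 genes were called at 24 h, all lower. Rsad2 (viperin, which makes a chain-terminating nucleotide) is given from 1 h on. At 1 h it was at 46.7, 51.1, 41.4 and 43.6 FPKM in the controls and at 37.1, 32.3, 26.5 and 23.6 FPKM with IL-4, at 3 h at 45.6, 51.5, 39.0 and 41.1 against 20.6, 25.6, 13.6 and 16.9 FPKM, and at 6 h at 38.1, 39.6, 30.2 and 23.9 against 9.46, 9.50, 6.54 and 3.99 FPKM. All IL-4 samples were below all controls at each of these times, which at 1 h held for no other gene of the 35 and for 7.81% of all loci, so that 1 gene in 35 is no more than the background. Its log2 changes were -0.61 (adjusted p = 0.678) at 1 h, -1.19 (adjusted p = 0.174) at 3 h, -2.05 (adjusted p = 0.00864) at 6 h and -2.33 (adjusted p = 0.00440) at 24 h; with the block the 3 h change was called too (adjusted p = 2.73e-08). Cmpk2, a mitochondrial nucleotide kinase and the head-to-head neighbour of Rsad2 on chromosome 12, fell with log2 changes of -1.24 (adjusted p = 0.0462) at 6 h and -1.91 (adjusted p = 0.00332) at 24 h. The dynamin-like GTPases Mx1 and Mx2 fell at 24 h with log2 changes of -2.17 (adjusted p = 0.00964) and -1.55 (adjusted p = 0.00962), and Samd9l, a brake on translation, with -1.09 (adjusted p = 0.00523). Bst2 did not pass: it was at 355, 249.7, 260.3 and 243 FPKM in the controls and at 222, 175 and 175 FPKM with IL-4. The samples did not overlap, but the log2 change was -0.53 ± 0.47 (adjusted p = 0.344), a mean of 68.8% of control.

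**Figure D2:**
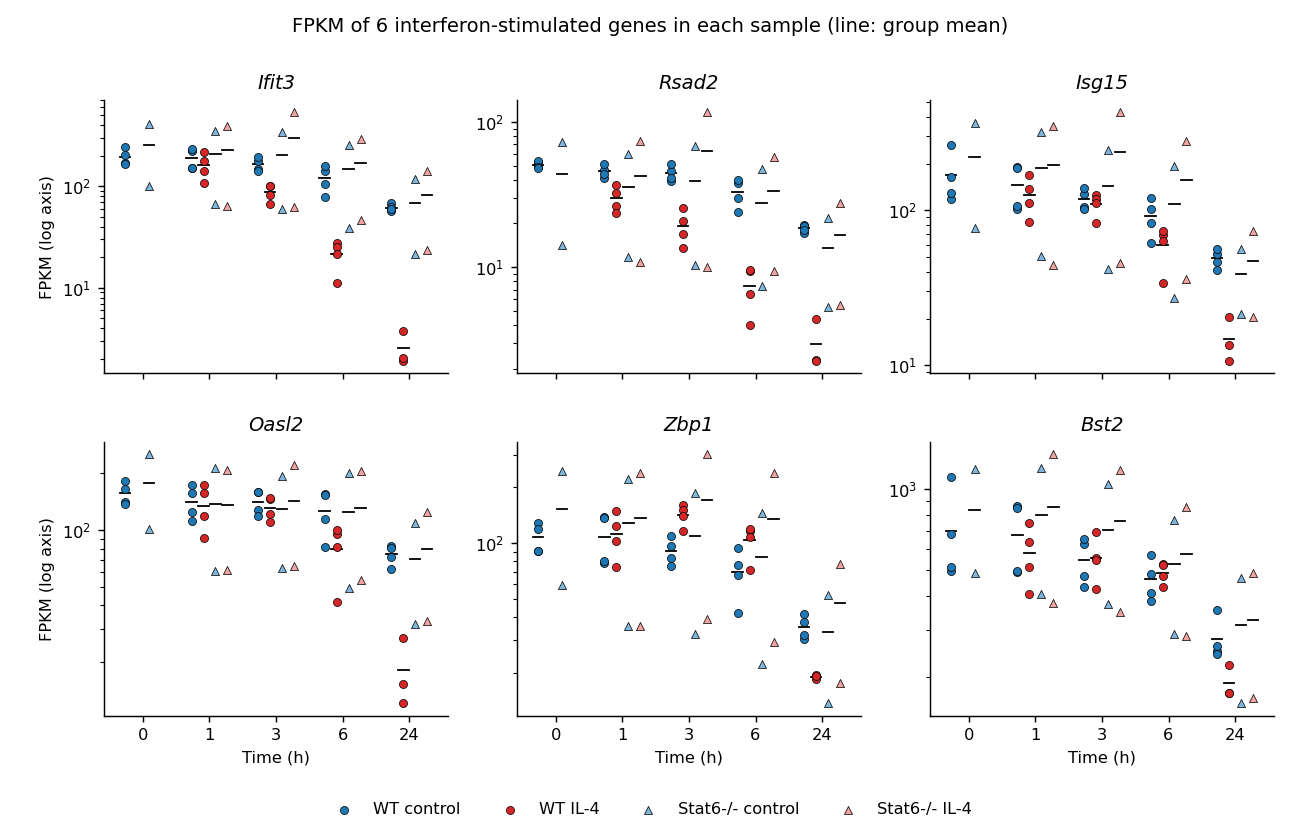
FPKM of Ifit3, Rsad2, Isg15, Oasl2, Zbp1 and Bst2 in every sample on a log axis, by genotype, treatment and time, 1 point per sample. With IL-4 the WT points of Ifit3 and Rsad2 lie below the WT controls from 3 h on and those of all 6 genes at 24 h, while the Stat6-/- points form 2 levels, 1 for each replicate.

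Of the enzymes and nucleases that act on RNA 6 of 7 were called lower at 24 h. Oas2, a synthase of the oligoadenylates that switch on RNase L, had the smallest adjusted p of the 35 genes: it was at 47.8, 47.5, 49.8 and 39.7 FPKM in the controls and at 11.7, 7.85 and 6.64 FPKM with IL-4. These groups lay widely apart, with a log2 change of -2.31 ± 0.33 (adjusted p = 2.81e-07). Oasl2, a relative with a ubiquitin-like tail and the most abundant of this set over all samples, was at 82.1, 72.6, 80.8 and 62.5 FPKM in the controls and at 26.9, 15.4 and 12.2 FPKM with IL-4. It fell by 2.05 ± 0.52 (adjusted p = 0.00115), and at 6 h its groups still overlapped (155, 153, 115 and 81.6 against 95.9, 101, 82.0 and 41.6 FPKM). Also called at 24 h, given by log2 change, were the exonuclease Isg20 at -1.85 (adjusted p = 0.0339) and Oasl1 at -1.84 (adjusted p = 0.0464). Oas3 at -1.68 (adjusted p = 0.0284) and Oas1a at -1.05 (adjusted p = 0.0161) were called too. Oas1a missed the 2-fold threshold with the block. Eif2ak2, the kinase PKR that stops translation on double-stranded RNA, had a log2 change of -0.70 (adjusted p = 0.0671).

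In the Isg15 pathway, with the ubiquitin and ADP-ribose enzymes, 3 of 6 genes were called at 24 h. Isg15 was at 52.0, 41.5, 56.4 and 46.5 FPKM in the controls and at 20.5, 13.5 and 10.7 FPKM with IL-4. No sample overlapped, yet the log2 change of -1.70 ± 0.72 was close to the threshold (adjusted p = 0.0446). It was not called without the filter on low values, nor when any 1 of the 4 controls or IL-4 replicate 3 or 4 was left out. Parp14, an ADP-ribosyl transferase also known as a partner of Stat6, was at 46.6, 46.7, 45.1 and 43.1 FPKM in the controls and at 19.9, 17.3 and 16.9 FPKM with IL-4, a log2 change of -1.29 ± 0.30 (adjusted p = 0.000409). The ligase Dtx3l fell as well, at -1.08 (adjusted p = 0.00855). Its partner Parp9, at -0.84 (adjusted p = 0.0321), and the Isg15 ligase Herc6, at -0.996 (adjusted p = 0.0470), passed the p threshold but fell short of 2-fold. Usp18, which removes Isg15 and holds back the interferon receptor, had a log2 change of -0.73 (adjusted p = 0.288).

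Of the nucleic acid sensors 2 of 5 were called at 24 h, the helicases Ddx60 at -1.51 (adjusted p = 0.00241) and Ddx58 (RIG-I) at -1.38 (adjusted p = 0.00268) on the log2 scale. Their relatives Dhx58 at -1.04 (adjusted p = 0.0527) and Ifih1 at -0.84 (adjusted p = 0.0922) did not pass. Zbp1, a sensor of Z-form nucleic acid that can start necroptosis, stood on opposite sides of its control at early and late times. At 3 h it was at 96.9, 109, 83.5 and 75.2 FPKM in the controls and at 161, 152, 117 and 140.0 FPKM with IL-4, and at 24 h at 37.7, 30.3, 41.7 and 32.2 against 19.5, 18.6 and 19.3 FPKM. All IL-4 samples were higher at 3 h and all were lower at 24 h. The log2 changes were 0.64 (adjusted p = 0.533) and -0.85 (adjusted p = 0.307), and with the block both passed without reaching 2-fold (adjusted p = 0.00200 and 0.000401).

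Of the other 8 interferon-induced genes 4 were called at 24 h. Rtp4, a chaperone for membrane receptors, was at 111, 104, 104 and 78.8 FPKM in the controls and at 33.0, 20.0 and 13.8 FPKM with IL-4, a clear separation with a log2 change of -2.19 ± 0.45 (adjusted p = 0.000106). The other 3 called are given by their log2 change. Xaf1, which antagonizes the caspase inhibitor XIAP, was at -1.47 (adjusted p = 0.0236). The nuclear body protein Sp100 was at -1.32 (adjusted p = 0.00505) and Epsti1 at -1.03 (adjusted p = 0.00213). Ifi44 was at 6.16, 4.36, 3.52 and 2.92 FPKM in the controls and at 1.22, 0.416 and 0.402 FPKM with IL-4. It did not overlap between groups and had a log2 change of -1.64 (adjusted p = 0.161), called only with the block (adjusted p = 1.29e-08). Ifi35 at -0.47 (adjusted p = 0.270) and Lgals3bp at -0.45 (adjusted p = 0.292) did not pass. Lgals3bp was at 386, 299, 367 and 312 FPKM in the controls and at 278, 246 and 221 FPKM with IL-4, so its samples were also apart, at a mean of 72.8% of control.

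Tor3a, an ATPase of the endoplasmic reticulum, was the 1 gene of the 35 with a positive log2 change at 24 h (43.1% of loci). At 6 h 7 of the 35 genes had one (49.9% of loci), the largest being Zbp1 at 0.59, and Tor3a was the 1 that passed. At 6 h Tor3a was at 43.8, 46.5, 40.0 and 36.7 FPKM in the controls and at 65.2, 64.1, 64.3 and 58.2 FPKM with IL-4. Every IL-4 sample was above every control at 6 h and again at 24 h, where the mean was 129% of control. It rose by 0.59 ± 0.24 at 6 h (adjusted p = 0.0487), less than 2-fold, and its 24 h log2 change was 0.35 (adjusted p = 0.252).

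Counted by sample, the separation at 24 h was complete: for 34 genes all 3 IL-4 samples were below all 4 controls and for Tor3a all were above, which was so for 37.1% and 27.4% of all loci. At 6 h 9 genes were all lower (Ifit1, Ifit2, Ifit3, Oas2, Oasl1, Mx1, Mx2, Rsad2 and Cmpk2; 22.3% of loci) and 1 all higher (23.8%). At 3 h 5 were all lower and 5 all higher, against 18.1% and 20.8% of loci. With the block, 14 genes passed at 3 h without regard to size, where 41.1% of all loci did, 7 lower and 7 higher (Zbp1, Tor3a, Epsti1, Parp14, Parp9, Ifih1 and Dtx3l), and at 24 h 34 passed lower and Tor3a higher, where 66.2% of all loci passed in either direction.

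**Figure D3:**
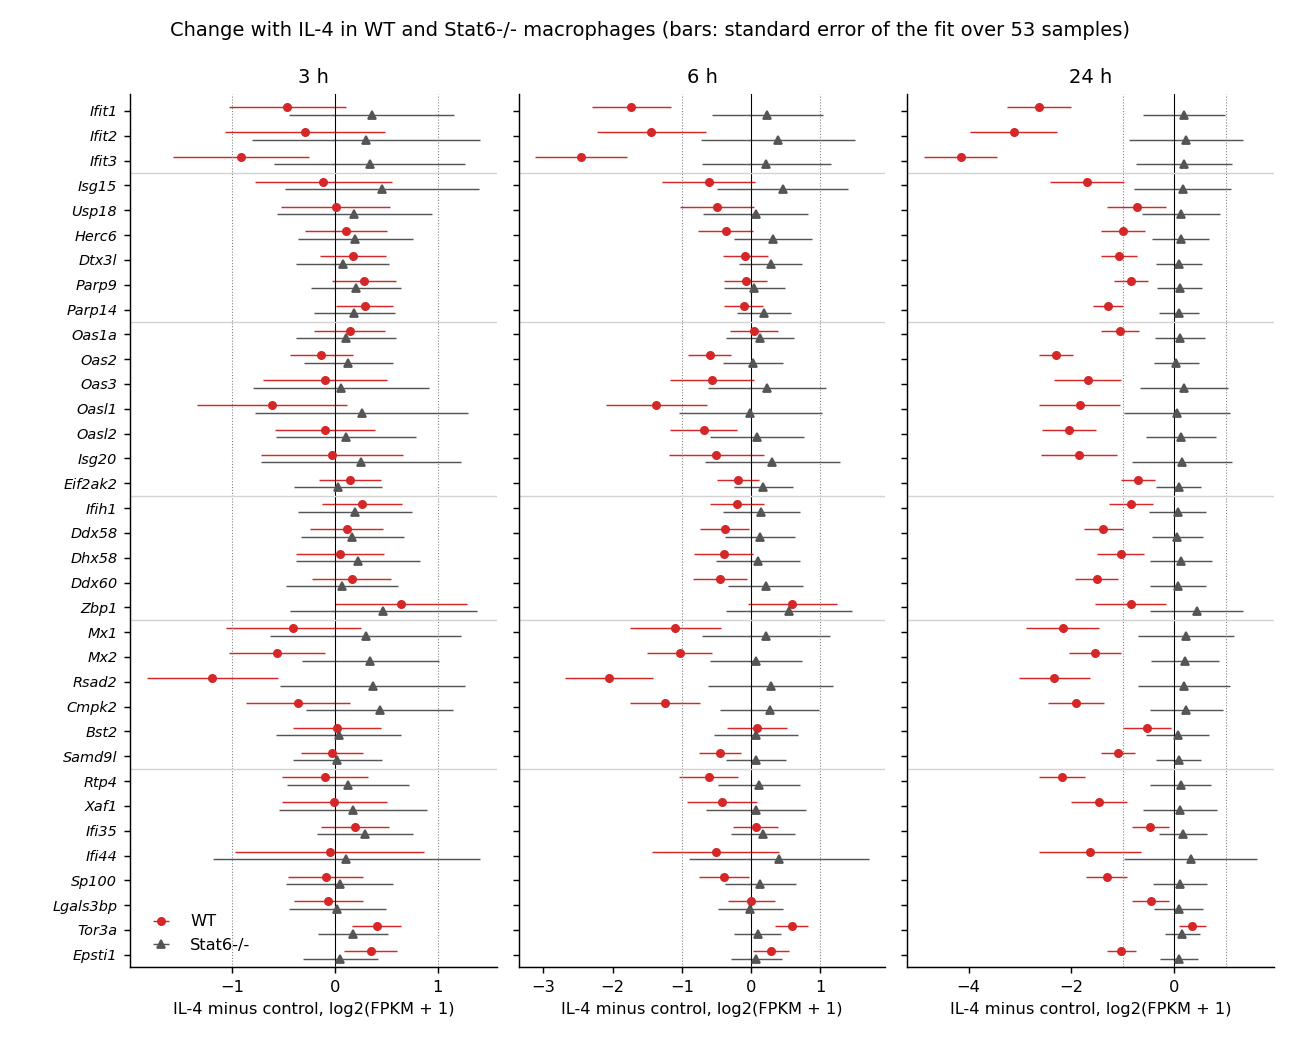
Log2 change with IL-4 against the time-matched control for the 35 genes at 3, 6 and 24 h, in WT and in Stat6-/- cells, with bars for the standard error of the fit over all 53 samples. Most WT points lie further to the left at 24 h than at 3 h, and the Stat6-/- points stay near 0 with wider bars.

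The change of the response between successive times was tested in the same fit. From 1 to 3 h and from 3 to 6 h no gene was called, against 1.61% and 0.449% of loci, and none had an unadjusted p below 0.05 in limma. From 6 to 24 h the log2 change became more negative for 3 genes (6.06% of loci): Oas2 at -1.71 (adjusted p = 0.00382), Epsti1 at -1.32 (adjusted p = 0.00800) and Parp14 at -1.18 (adjusted p = 0.0264). With the replicate block 3 genes were called from 3 to 6 h (Ifit1, Ifit2 and Ifit3, 0.646% of loci) and 11 from 6 to 24 h (7.02%). Without regard to size 5 genes then passed from 1 to 3 h (22.2% of loci), 16 from 3 to 6 h (11.8%) and 31 from 6 to 24 h (44.1%). The 16 and the 31 all became more negative. Rsad2 shows the earlier course, with a log2 change of -2.05 at 6 h and -2.33 at 24 h, and Oas2 the later one, with -0.60 and -2.31.

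Other cell markers were read beside these results. Between control and IL-4 at 24 h in WT, the summed FPKM of 6 macrophage genes was 3274 to 3773 and 2604 to 2626, that of neutrophil and granulocyte precursor genes 415 to 566 and 202 to 295, and that of 6 plasmacytoid dendritic cell genes 12.3 to 14.5 and 6.51 to 7.95. Of the last list only Tcf4 reached 1 FPKM at 24 h, and Siglech, its defining marker, was at 0.121 to 1.20 FPKM over all samples. The sum of 5 B cell genes was 2.59 to 5.41 and 1.23 to 1.52, and the T cell gene Cd3e was at most at 0.0717 FPKM. Of the macrophage list, the Fc receptor gene Fcgr1, Mertk and Emr1 fell at 24 h, with log2 changes of -2.34 (adjusted p = 0.00178), -1.89 (adjusted p = 1.77e-13) and -1.20 (adjusted p = 2.89e-09). The granulocyte genes S100a8 and Camp had log2 changes of -1.20 (adjusted p = 5.68e-06) and -1.02 (adjusted p = 0.00110), Camp not called with the block, and Cd79b, the 1 B cell gene tested, of -1.07 (adjusted p = 9.30e-05). Between WT and Stat6-/- controls at 0 h, the granulocyte sum was 387 to 505 and 701 to 796, and the B cell sum 4.58 to 5.88 and 7.16 to 7.67. The sum of 5 basophil and mast cell genes was 0.746 to 1.06 and 3.22 to 3.24. At 24 h the granulocyte sums of the controls overlapped, at 415 to 566 and 560 to 801. The part of these shifts in the 24 h decrease of the 35 genes, or in the comparisons of genotypes, was not tested.

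Without IL-4 the genes were also lower at late times. Between 0 and 24 h without IL-4 all 35 genes were lower on average in WT, with a median log2 change of -0.97 beside -0.04 over all loci, and every 24 h control was below every 0 h control for all 35 (15.7% of all loci). Ifit3 was at 245, 203, 169 and 164 FPKM at 0 h, against the 24 h values given above, a log2 change of -1.63 (adjusted p = 0.0814). Bst2 was at 1102, 679, 497 and 514 FPKM at 0 h and at 355, 249.7, 260.3 and 243 FPKM at 24 h. It was the 1 gene called (1.13% of loci), with a log2 change of -1.27 ± 0.43 (adjusted p = 0.0377), a call that was lost when 0 h replicate 1 or 2 or 24 h replicate 2, 3 or 4 was left out. Tor3a fell by 0.67 (adjusted p = 0.0481), short of 2-fold. With the block 17 genes were called at 24 h (1.93% of loci). At 1, 3 and 6 h no gene was called in the WT controls (0%, 0.00897% and 0.0179% of loci), and none had an unadjusted p below 0.05 in limma. With the block none was called at these times either (0%, 0.0179% and 0.0538% of loci). Without regard to size, 29 of the 35 genes then passed at 6 h, all lower (5.21% of loci). At 1 h 1 gene passed (6.48%) and at 3 h 0 did (1.29%). The time-matched control is therefore the base of every IL-4 change given here.

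Stat6-/- controls had the same direction, with a 24 h median of -1.32 and 35 of 35 genes lower on average. None was called at 1, 3, 6 or 24 h (0%, 0%, 0% and 0.161% of loci), though 14 had an unadjusted p below 0.05 at 24 h in limma (14.7% of loci). With the block, 3 were called at 6 h (Ifit2, Ifit3 and Zbp1, 0.0897% of loci) and 22 at 24 h (1.26%). Within replicates 1 and 2 the 24 h medians were -1.27 and -1.26, with 35 genes lower in each, where 59.7% and 50.1% of all loci were lower. Leaving replicate 1 or 2 out of every group gave 16 and 15 calls at 24 h (2.35% and 1.27% of loci), all lower.

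In Stat6-/- cells the 2 replicates held the interferon-stimulated genes at different levels throughout. For Ifit3 the 0 h controls were at 99.7 and 406 FPKM in replicates 1 and 2, and the 24 h controls at 21.7 and 116 FPKM. The WT controls lay between them, at 245, 203, 169 and 164 FPKM at 0 h. The mean difference between replicate 2 and replicate 1 over the 9 groups had a median of 1.55 log2 units over the 35 genes, from 0.92 in Tor3a to 3.44 in Ifi44, and 33 genes differed by at least 1, against 2.63% of all loci. In WT groups the median range between replicates was 0.33 to 0.84. At 0 h replicate 1 was below all 4 WT controls for 35 genes and replicate 2 was above all of them for 34. The share of all loci in such positions was not counted.

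Other genes of the interferon pathway also stood higher in replicate 2. Irf7, which amplifies interferon production, was 2.94 log2 units higher in replicate 2, Stat2 1.72 and the nucleic acid receptor Tlr9 1.58. Fcgr1 averaged 96.0 FPKM in replicate 1 and 427 FPKM in replicate 2. The mean differences were -0.01 for Ifnar1, -0.14 for Jak1, -0.05 for Irf3, 0.06 for the IL-4 target Arg1 and 0.02 for Siglech. Other pathway and cell marker genes differed more, in both directions. Ccr7 was at 1.25, Itgam at 0.69, Tyk2 at 0.42, Ifnar2 at 0.33 and Tcf4 at 0.19. Elane was at -0.46, Csf1r at -0.41, the IL-4 target Mrc1 at -0.38 and S100a8 at -0.35. The source of the gap was not tested.

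**Figure D4:**
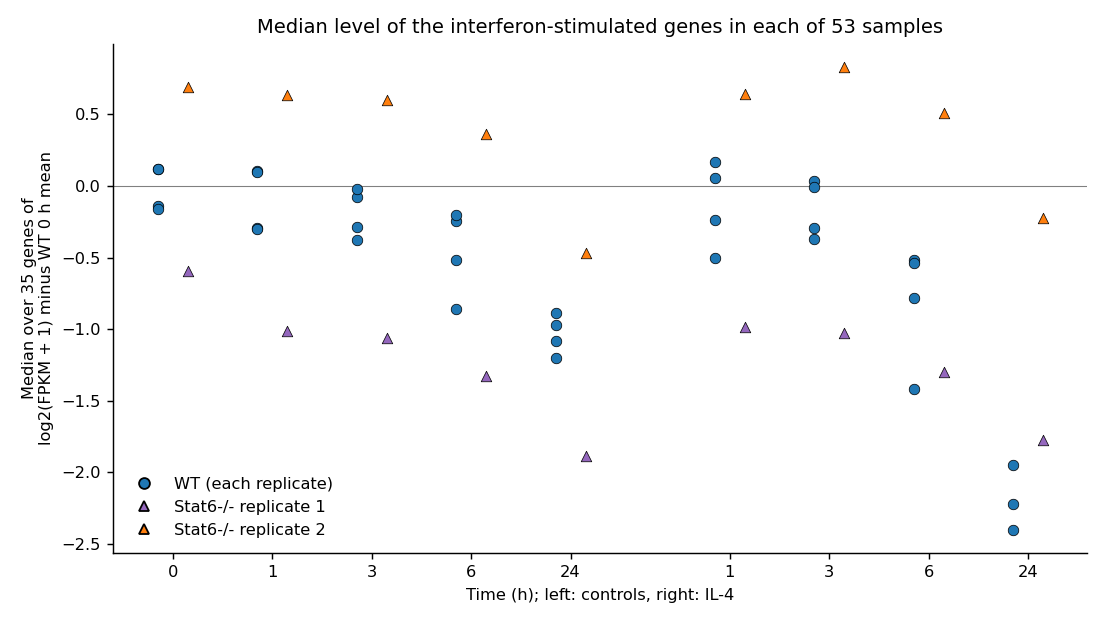
Median over the 35 genes of log2(FPKM + 1) in each sample, relative to the WT control at 0 h, by group and replicate number. In the controls Stat6-/- replicate 2 lies above and replicate 1 below the WT samples, and with IL-4 at 24 h the 3 WT samples are the lowest of all.

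In Stat6-/- cells no gene passed as changed by IL-4. No gene was called at 1, 3, 6 or 24 h, where 0%, 0%, 0% and 0% of loci were called. Without the block none had an unadjusted p below 0.05 in limma, and with it 0, 2, 2 and 0 genes had. None passed with the block after adjustment, without regard to size (0.0179%, 0.0359%, 0.0359% and 0.00897% of loci). No gene was called with the block or with the Stat6-/- samples fitted alone either. The medians were 0.01, 0.19, 0.15 and 0.12 in log2, and 20, 35, 33 and 35 of the 35 genes had a positive value. Of all loci 50.8%, 52%, 51.6% and 54.3% had one. With IL-4 at 24 h Ifit3 was at 23.6 and 141 FPKM in replicates 1 and 2, each above its own control, and Rsad2 at 5.45 and 27.8 FPKM against 5.30 and 21.7 FPKM in the controls. Counted within replicates, 25 genes at 3 h, 29 at 6 h and 27 at 24 h were higher with IL-4 in both, and none was lower in both, where 29.3%, 29.4% and 25.9% of all loci were higher in both and 25.3%, 26.5% and 20.1% lower. At 1 h 8 genes were higher and 4 lower in both (28% and 24.9% of loci). The median over the 35 genes was highest in replicate 2 at 3 h, at 0.32 in log2, beside 0.03 in replicate 1. Ifit3 was at 532 FPKM in that sample and at 342 FPKM in its control.

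The difference between the WT and the Stat6-/- response was tested directly. At 24 h 5 genes differed (6.85% of loci): Ifit3 at -4.35 ± 1.17 (adjusted p = 0.00486), Ifit1 at -2.82 (adjusted p = 0.0344), Oas2 at -2.35 (adjusted p = 0.00122), Rtp4 at -2.31 (adjusted p = 0.0187) and Parp14 at -1.38 (adjusted p = 0.0323) in log2. All 5 were lower in the WT response, and 17 of the 35 genes had an unadjusted p below 0.05 in limma (38.6% of loci). At 1, 3 and 6 h none was called (1.25%, 3.48% and 4.41% of loci), with 0, 0 and 2 genes at an unadjusted p below 0.05 (10.2%, 20.4% and 27.3% of loci). With the replicate block the calls were 2 at 3 h (Rsad2 and Ifit3, 4.07% of loci), 9 at 6 h (the 3 IFIT genes, Isg15, Oasl1, Mx1, Mx2, Rsad2 and Cmpk2, 5.44%) and 27 at 24 h (8.76%).

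The 24 h log2 difference moved with single Stat6-/- libraries in the fit without the block. For Ifit3 it was -3.17 without control replicate 1 and -5.54 without control replicate 2, beside -4.35 with all samples. Leaving out 1 of them sets a group of 1 replicate against a group of both, and these replicates stood at different levels. The 24 h count of genes called moved as well. It was 28 with Stat6-/- replicate 1 left out of every group (7.74% of loci) and 22 with replicate 2 left out (8.62%), when the remaining Stat6-/- sample of a group is assumed to vary as the other groups do. Taking out only the Stat6-/- control replicate 1 at 24 h gave 0 (4.16% of loci) and only the Stat6-/- IL-4 replicate 2 gave 1, Oas2 (4.66%). It was 19 without the Stat6-/- IL-4 replicate 1 (11.6%) and 18 without the Stat6-/- control replicate 2 (12.2%). Removing WT IL-4 replicate 3 gave 3 (6.75%), without Ifit1 and Parp14, and removing replicate 4 gave 2 (6.84%), without Rtp4 as well. Oas2 at 24 h shows the contrast in single samples: with IL-4 it was at 11.7, 7.85 and 6.64 FPKM in WT and at 29.2 and 74.6 FPKM in Stat6-/-, whose controls were at 28.6 and 71.8 FPKM. With IL-4 at 24 h Stat6-/- replicate 1 was above all 3 WT samples for 28 genes, below all for 3 and among them for 4. The 24 h control of that replicate was below all 4 WT controls for 35. These positions of single samples were not counted over all loci, so they have no background to be set against.

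Without IL-4 the genotypes could not be separated in these genes. At 0, 1, 3, 6 and 24 h no gene was called between Stat6-/- and WT controls (0.35%, 0.26%, 0.126%, 0.0449% and 0.0269% of loci), none had an unadjusted p below 0.05 in limma, and the medians lay between -0.09 and 0.09. With replicate 1 left out 6, 4, 7, 6 and 0 genes were called at these times, all higher in Stat6-/- (2.48%, 2.44%, 2.44%, 2.4% and 2.06% of loci in either direction). With replicate 2 left out 2, 10, 7, 6 and 4 were called, all lower (0.269%, 0.565%, 0.368%, 0.341% and 0.565%). In these controls replicate 2 was above every WT sample for 33 to 35 genes and replicate 1 below every WT sample for 34 to 35, positions not counted over all loci.

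WT replicates also shared a level across the genes, in a narrower band. In the WT controls at 6 h, replicates 1 and 2 were above the group mean for 34 and 35 of the 35 genes and replicates 3 and 4 for 2 and 0. Over the deviations of the 35 WT samples from their group means, the 595 pairs of genes had a median Pearson r of 0.85, from 0.25 to 0.98. These points share a library and possibly an animal, and the value is a description. Within replicates at 24 h the median response to IL-4 was -1.15, -1.43 and -1.45 in replicates 2, 3 and 4. In each of them 34 of 35 genes were lower and 1 was higher, where 45.3%, 40.9% and 43.9% of all loci were higher.

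Genes upstream of the 35 were counted from lists. None of 17 interferon ligand genes reached 1 FPKM in any sample, and the highest value of Ifnb1 was 0.265 FPKM. Of 7 receptor and kinase genes, Jak2 rose with IL-4 in WT, with log2 changes of 1.70 (adjusted p = 1.56e-17) at 3 h and 1.76 (adjusted p = 4.33e-18) at 6 h, and Ifngr1, a receptor chain for the type II interferon, fell at 24 h, with a log2 change of -1.15 (adjusted p = 2.11e-10). Of 9 STAT and IRF genes 1 was called higher at 6 h, Irf1 at 1.17 (adjusted p = 5.51e-06), and 2 lower at 24 h, among them Irf7 with a log2 change of -2.43 (adjusted p = 0.0209). Irf7 was at 163 ± 55.4 FPKM (SD, n = 4) in the controls and 31.4 ± 18.6 FPKM (n = 3) with IL-4 at 24 h. Irf9 passed at 24 h short of 2-fold, at -0.97 (adjusted p = 5.83e-05), and Stat2 did not pass, at -0.77 (adjusted p = 0.184).

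Of 7 negative regulators, Socs1, an inhibitor of Janus kinases, was higher at all 4 times and had its largest log2 change, 5.90 (adjusted p = 3.04e-20), at 1 h, and Ptpn2, a phosphatase of Janus kinases, rose at 6 h by 1.06 (adjusted p = 7.06e-17). Of 12 sensors and kinases that induce interferon, Tlr4 rose at 1 h by 1.22 (adjusted p = 4.53e-07), and Tlr9, Ikbke and Tlr7 fell at 24 h, with log2 changes of -2.30 (adjusted p = 7.36e-05), -1.71 (adjusted p = 6.02e-12) and -1.01 (adjusted p = 0.000244). Tlr7 missed the 2-fold threshold with the block. A second list of 35 interferon-stimulated genes, 34 of them tested, had 0, 1, 2 and 15 genes lower at 1, 3, 6 and 24 h and none higher, with a 24 h median of -1.08. Of all loci 1.49%, 3.88%, 5.54% and 8.5% were called in either direction at these times. These lists, like the 35 genes, were drawn up with results of these data known.

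The pattern of the 35 over the 18 group means was taken as their mean, after each gene was scaled to the same SD. Genes most like it were Trex1 (Pearson r = 0.991), Ifi204 (0.987), Parp12, Sp110, Irgm1, Gm5431, Rnf114, Mndal, Znfx1 and H2-T24 (0.982). The group means share replicates of 2 genotypes, so that r describes likeness of pattern and no more.

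Promoters were compared with the response last. RefSeq promoters, here 250 bases before to 50 after the start, were found for 25 of the 35 genes, and Mx1, Mx2, Oas2, Usp18, Rtp4, Dhx58, Zbp1, Parp9, Parp14 and Tor3a had none in the table. The ISRE core defined above was present in 11 of the 25 (44.0%), against 3.26% of 8289 other tested genes and 3.44% of all 32851 promoters. The stricter form, with GAAA and GAAACT 2 bases apart, was in 6 of 25 (24.0%), against 0.271% of all promoters. The interferon-gamma activated site TTCNNNGAA was in 5 (20.0%, against 8.3% of all), and the form with TTC and GAA 4 bases apart in 2 (Oas1a and Dtx3l, 8.0%, against 6.95%). A match is a match of letters, not a bound site.

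Genes with and without a core were both lower. The median 24 h log2 change in WT was -1.51 for the 11 genes with a core and -1.39 for the 14 without. The 2 cores of Ifit3, printed above, begin at positions -156 and -122 from its start, and this gene had the largest decrease. Bst2, whose overlapping cores begin at -130 and -124, had a log2 change of -0.53, whereas Ifit2 had none in this window and fell by 3.13. Oasl2 and Lgals3bp, both without a core here, had log2 changes of -2.05 and -0.45.

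**Figure D5:**
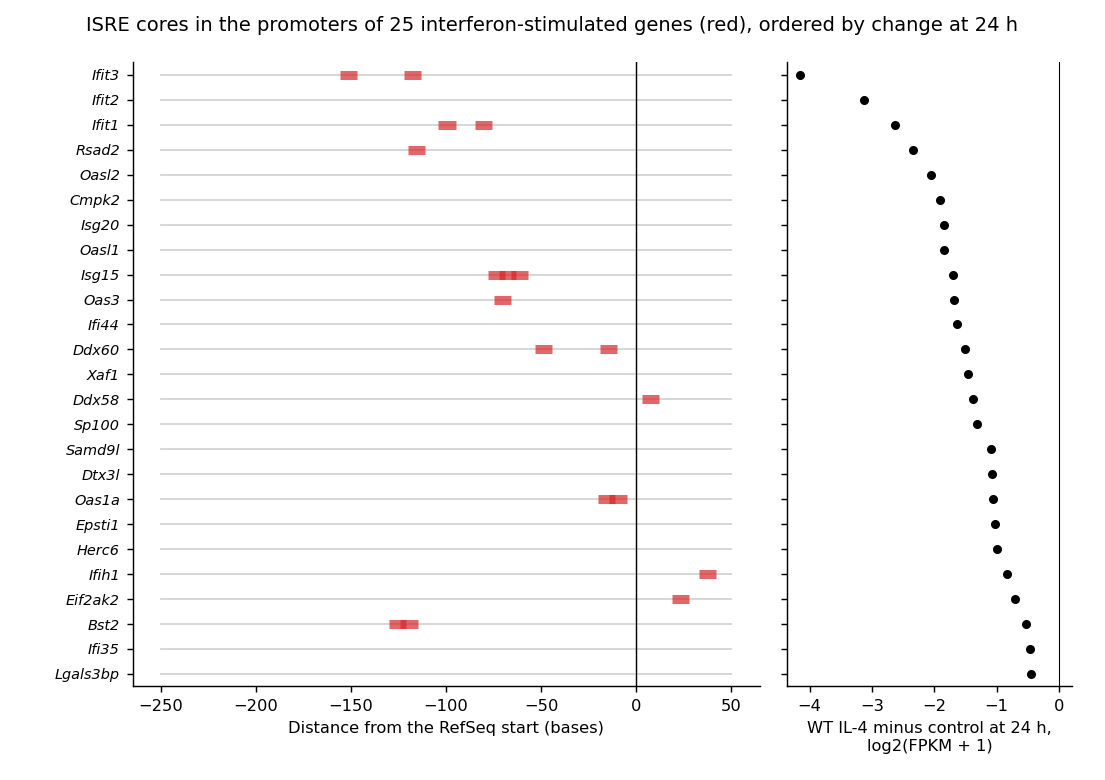
Positions of ISRE cores relative to the transcription start (x axis, bases) in the 25 promoters, with the genes ordered by their 24 h log2 change with IL-4 in WT. Genes with a core occur at both ends of the order, from Ifit3 at -4.16 to Bst2 at -0.53.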

How the data were processed

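Poly-A RNA-seq of 53 BMDM samples was used. The authors deposited 1 table per sample with FPKM per locus; per the submitters' processing notes the tools were TopHat2 2.0.7 and Cufflinks 2.0.2 on mm10, and the annotation and strandedness are not given in the sources used here. FPKM keeps no read counts, so absolute depth is unknown. The values were analysed as log2(FPKM + 1) with limma 3.58.1 (R 4.3.3; lmFit and eBayes with trend) in 1 fit with a mean per group (18 groups, 35 residual degrees of freedom), over the 11146 of 23847 loci that reached 1 FPKM in any of the samples. A fold change on this scale understates changes of low genes. A call needed a Benjamini-Hochberg adjusted p under 0.05 over all these loci and a 2-fold change; the scripts were tested on simulated data. In place of the study's analysis of variance limma was used, and a Tukey adjustment was an alternative. The 35 genes, the lists and the tests were chosen with earlier results of these data known.

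The replicate block was the number within each genotype (31 residual degrees of freedom). Numbers were read as animals, since the study describes individual animals, though the labels do not say so. Deviations of same-numbered IL-4 and control samples correlated at 0.0265 to 0.561 in WT and 0.791 to 0.900 in Stat6-/-. In WT the same number was not always the best match, as for IL-4 replicates 3 and 4 at 1 h and replicate 2 at 6 h. In Stat6-/- groups of 2 the deviations mirror each other, so both replicates give 1 value. Genes with values in full were the 3 called with the largest decrease or increase in WT at each time, the most abundant of each functional group, and the 2 largest calls in each other comparison; Ifi44, Tor3a and other sample values were added after they were seen. Other alternatives were a pseudocount of 0.1, no filter, quantile normalization, only the groups compared, 1 genotype alone, and leaving out each library or each Stat6-/- replicate. Promoter sequences are from RefSeq (GRCm38.p6) and were searched with Python 3.11.15. Some genes of the marker and pathway lists are not reported here. Figures were drawn with matplotlib 3.10.9.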

Additional observations from a re-analysis of the deposited data

Results flagged for a closer look

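In the WT controls at 24 h, Bst2 was at 355 FPKM in 1 sample and at 243 to 260.3 FPKM in the other 3, a gap large enough to mark that sample as apart. With IL-4 at 6 h in WT, Lgals3bp was at 455 FPKM in 1 sample and at 581 to 595 FPKM in the other 3. Such gaps were looked for in 72 sets of replicates of the genes named in full and found in these 2, where chance alone marks about 1 in 20.

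The response to IL-4 at 24 h differed between the genotypes by the test of the difference itself (limma, 2-fold and adjusted p) for Ifit3 (-4.35 in log2, WT response minus Stat6-/- response), Ifit1 (-2.82), Oas2 (-2.35), Rtp4 (-2.31) and Parp14 (-1.38). Without the Stat6-/- control replicate 1 at 24 h they were -3.17, -2.03, -1.70, -1.44 and -0.92 in the same order. Without the Stat6-/- IL-4 replicate 2 they were -3.09, -1.84, -1.69, -1.47 and -0.81. Leaving out the other replicate moved Ifit3 to -5.54 (control replicate 2) and -5.62 (IL-4 replicate 1). Each of these fits leaves 1 sample in a group whose 2 replicates stood at different levels.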

How the results depend on the processing

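Counts below are of the 35 genes called. Those without a share of all loci, here or above, cannot be set against that background. With the replicate block, the counts that moved were 1 at 3 h and 8 at 6 h for IL-4 in WT, 2, 9 and 27 at 3, 6 and 24 h for the difference between genotypes, 17 for the WT controls at 24 h, 3 and 22 for the Stat6-/- controls at 6 and 24 h, and 3 and 11 for the change of the WT response from 3 to 6 h and from 6 to 24 h. With only the groups compared they were 1 (3 h, 3.99% of loci), 8 (6 h, 5.69%), 17 (WT controls at 24 h, 1.93%), 2 (3 to 6 h, 0.655%) and 14 (6 to 24 h, 7.03%). With 1 genotype alone they were 1 (3.98%), 8 (5.71%), 17 (1.92%), 2 (0.655%) and 15 (7%). With Stat6-/- replicate 1 left out of every group, the same 5 counts were 1, 8, 17, 2 and 15, the difference between genotypes 2, 6 and 28 at 3, 6 and 24 h, Stat6-/- against WT controls 6, 4, 7 and 6 at 0, 1, 3 and 6 h, and the Stat6-/- controls at 24 h 16. With replicate 2 left out they were 1, 8, 17, 2 and 15, the difference 4 and 22 at 6 and 24 h, Stat6-/- against WT controls 2, 10, 7, 6 and 4 at 0, 1, 3, 6 and 24 h, and the Stat6-/- controls at 24 h 15. The WT comparisons hold no Stat6-/- sample, so these moves come through the spread shared by all groups. The Tukey adjustment gave 0 at 6 h and 5 at 24 h in WT, a pseudocount of 0.1 gave 10 for the difference at 24 h, and no filter gave 3 there and 0 for the WT controls at 24 h. The cause of the last 2 moves was not tested. The stricter ISRE form was in 6 promoters in place of 11.

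Leaving out 1 library at a time gave 2 to 4 genes for IL-4 in WT at 6 h, 17 to 22 at 24 h, 0 to 1 for the WT controls at 24 h, 0 to 2 for the difference between genotypes at 6 h and 0 to 19 at 24 h, and 2 to 4 for the change from 6 to 24 h. Of 103 values of single called genes under the other alternatives 93 stayed past the threshold, of 96 with 1 library left out 78 did, and none changed sign. Absolute depth is unknown, 2 Stat6-/- samples per group limit every comparison of genotypes, and a gene that did not pass was not shown to be unaffected.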
